A study of Homo sapiens with 8 samples.

Results

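Leukotriene B4 (LTB4) is a lipid signal made from arachidonic acid, and 9 genes of its synthesis, breakdown and recognition were followed in the human B-cell line JVM13 after induction of cyclin D1. The genes were ALOX5AP, ALOX5, LTA4H, LTC4S, CYP4F2, CYP4F3, CYP4F12, LTB4R and LTB4R2. Members were all probe sets of the array annotated to exactly 1 of these genes, which gave 18 of 48854 probe sets, and 8 of the 18231 genes with a probe set of their own. LTB4R2 had none. CYP4F2 with both cyclin D1 constructs and LTB4R with the T286A construct had already been seen higher than with empty vector in an earlier analysis of these arrays, and the pathway was selected on those values. Differences of the 18 probe sets from empty vector are therefore given as a description. The fit over all probe sets covers these contrasts too, and its counts of members there are printed beside the share of all probe sets and support nothing. T286A against wild type is the comparison given with p-values for the members, and it uses the same construct arrays, so for LTB4R it is not independent of the choice.

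Transcript levels in 8 samples were read on Affymetrix arrays. JVM13 is an established cell line that came from a B-cell prolymphocytic leukaemia. The cells carried an inducible vector with T286A cyclin D1, a form that is not phosphorylated at the residue that marks it for export and degradation (n = 3), or wild-type cyclin D1 (n = 3), and the control cells carried the empty vector (n = 2). All 3 groups, the empty vector cells included, received 0.1 µg/mL doxycycline. The labels give neither the length of induction nor the number of independently made populations or cultures, so a p-value here reflects only how these samples vary, and part of that may be technical. Values are log2 expression levels from robust multi-array averaging (RMA). This method equalises the distribution of single probe values between arrays before it combines them into probe sets. A value is therefore relative to the other genes of its array, and background signal makes differences of dim probe sets too small. Medians of the probe set values still ran from 5.47 in wild-type replicate 2 to 5.62 in empty vector replicate 1.

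The labels of construct and empty vector arrays were checked on the cyclin D1 gene, CCND1. Its induced probe set read 11.25, 10.86 and 10.95 in T286A arrays and 10.98, 11.13 and 11.07 in wild-type arrays. It read 5.25 and 4.98 in empty vector arrays. T286A and wild-type arrays overlapped there, with a difference of -0.04, so this check cannot tell those labels apart. The other CCND1 probe sets overlapped in every comparison. B-cell identity was checked on 7 measured markers, among them MS4A1, CD79A and PAX5, whose group means lay between 7.88 and 13.4, all at or above the median probe set (5.57). Of 10 myeloid markers, 9 lay below that median by their mean over all arrays, and MPO, ELANE, CD14 and LYZ had group means between 3.97 and 4.79. S100A9 was close to it, with a mean of 5.32 in T286A, 5.49 in wild-type and 5.96 in empty vector arrays, the last above the median. ITGAM lay above the median in every group, with a mean of 7.78 in T286A, 7.33 in wild-type and 7.75 in empty vector arrays. In a bulk sample, fewer cells of a type and less RNA per cell cannot be told apart. Wild-type replicate 2 stood apart from its group, with an array weight of 0.505 in limma against 0.846 to 1.44 in the other arrays.

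LTB4 is made in a short enzyme chain. The membrane protein encoded by ALOX5AP presents arachidonic acid to the lipoxygenase encoded by ALOX5, which produces leukotriene A4. The hydrolase LTA4H turns this into LTB4, and the synthase LTC4S instead joins it to glutathione, which opens the cysteinyl leukotriene branch. CYP4F cytochromes end the signal by hydroxylating the far end of the LTB4 chain: CYP4F3 is known for this in neutrophils and CYP4F2 in liver, and CYP4F12 is a relative that oxidises arachidonic acid and several drugs. LTB4R and LTB4R2 encode the high-affinity and low-affinity G-protein-coupled receptors. LTB4 is best known for attracting neutrophils, and human B cells also express ALOX5.

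The start regions of CYP4F2 and LTB4R are printed because these genes led to the choice of the pathway, and that of LTA4H because it was the only one of the 7 member windows found in the RefSeq promoter table that held the motif searched. Each window runs from 250 bases before to 50 bases after the annotated start in GRCh38.p14 (RefSeq), 5′ to 3′ on the strand of the gene. The motif was the core of the E2F site, written as TTCCCGC, or as TTCGCGC, or as TTGCCGC, or as TTGGCGC, on either strand, and capitals mark it.
CYP4F2, chr19:15898025-15898324, minus strand: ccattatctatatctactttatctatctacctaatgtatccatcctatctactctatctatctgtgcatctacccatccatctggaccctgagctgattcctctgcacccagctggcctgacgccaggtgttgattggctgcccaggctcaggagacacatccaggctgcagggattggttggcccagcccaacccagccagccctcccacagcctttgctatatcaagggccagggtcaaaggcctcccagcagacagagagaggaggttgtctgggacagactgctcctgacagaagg
LTB4R, chr14:24312857-24313156, plus strand: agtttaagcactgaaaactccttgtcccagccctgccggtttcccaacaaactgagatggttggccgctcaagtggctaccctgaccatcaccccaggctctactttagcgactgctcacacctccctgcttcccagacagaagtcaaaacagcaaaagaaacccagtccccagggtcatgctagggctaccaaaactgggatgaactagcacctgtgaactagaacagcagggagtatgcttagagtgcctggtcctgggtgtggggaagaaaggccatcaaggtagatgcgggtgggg
LTA4H, chr12:96035538-96035837, minus strand: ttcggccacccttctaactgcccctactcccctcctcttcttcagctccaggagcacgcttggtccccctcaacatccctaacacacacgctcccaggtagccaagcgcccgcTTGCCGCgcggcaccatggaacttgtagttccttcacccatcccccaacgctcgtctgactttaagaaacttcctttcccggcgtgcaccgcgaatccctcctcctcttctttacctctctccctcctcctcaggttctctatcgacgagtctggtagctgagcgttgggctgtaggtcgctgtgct
LTA4H held 1 core, TTGCCGC. The windows of CYP4F2, CYP4F3, LTB4R, LTB4R2, ALOX5AP and LTC4S held none of these letters, and 13.0% of 35116 promoters of this length held at least 1. A match describes the letters of the window and not a bound site.

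**Figure D1:**
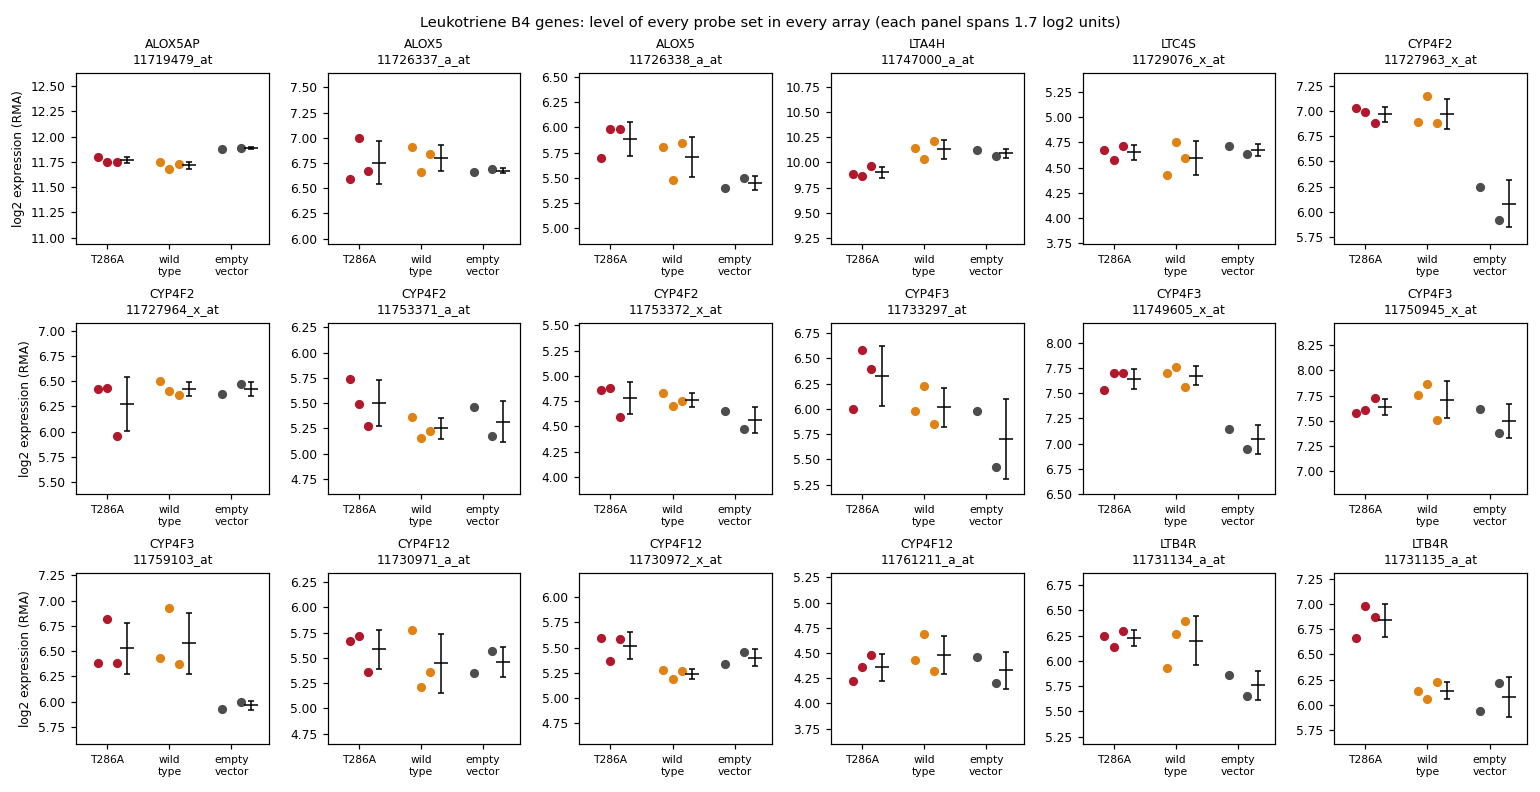
Log2 expression (RMA) of the 18 probe sets in each array, with T286A, wild-type and empty vector arrays from left to right in each panel; points are arrays and the bars give mean ± SD (n = 3, 3 and 2). The first CYP4F2 panel shows every construct array at or above 6.88 and both empty vector arrays at or below 6.25, while the last LTB4R panel shows only the T286A arrays raised.

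Genes of LTB4 synthesis differed between the groups by 0.44 or less, the largest difference being that of ALOX5 11726338_a_at with T286A against empty vector. ALOX5AP read 11.80, 11.75 and 11.75 in T286A arrays, 11.75, 11.68 and 11.73 in wild-type arrays, and 11.88 and 11.89 in empty vector arrays. Both constructs lay below empty vector with no overlap, by a small margin: the differences were -0.12 ± 0.070 with T286A and -0.17 ± 0.070 with wild type (log2 ± SE). Between the constructs the difference was 0.05 (95% interval -0.09 to 0.19, adjusted p = 0.789), and here too the arrays did not overlap. LTA4H, the hydrolase that yields LTB4, read 9.88, 9.86 and 9.96 in T286A arrays, 10.14, 10.03 and 10.22 in wild-type arrays, and 10.12 and 10.06 in empty vector arrays. T286A arrays were thus the lowest, without overlap with either other group. The difference of T286A from wild type was -0.23 ± 0.074 (interval -0.40 to -0.06), which did not pass the test over all probe sets (unadjusted p = 0.0136, adjusted p = 0.293).

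ALOX5 was read by 2 probe sets. The brighter, 11726337_a_at, averaged 6.75 ± 0.21 in T286A, 6.80 ± 0.13 in wild-type and 6.68 ± 0.023 in empty vector arrays (SD), and its groups overlapped in every comparison. With 11726338_a_at, ALOX5 read 5.69, 5.98 and 5.99 in T286A arrays, 5.80, 5.48 and 5.84 in wild-type arrays, and 5.40 and 5.50 in empty vector arrays. All T286A arrays lay above both empty vector arrays, with a difference of 0.44 ± 0.13, while wild type overlapped them at 0.26 ± 0.13. Neither probe set separated the constructs: T286A minus wild type was -0.05 (interval -0.31 to 0.21) and 0.18 (interval -0.09 to 0.46), with adjusted p of 0.901 and 0.600. LTC4S, the entry to the cysteinyl branch, averaged 4.65 ± 0.072 in T286A, 4.59 ± 0.17 in wild-type and 4.67 ± 0.059 in empty vector arrays, below the median probe set throughout. Its groups overlapped, and T286A exceeded wild type by 0.06 (interval -0.16 to 0.27, adjusted p = 0.848). A further probe set, 11729075_s_at, is annotated to LTC4S and MAML1 together and is not a member. It averaged 5.77 in T286A, 5.68 in wild-type and 5.93 in empty vector arrays, above the median probe set, with overlapping groups. Transcripts of LTC4S and MAML1 cannot be told apart by it.

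The breakdown genes lay above empty vector in some probe sets and not in others. The brightest CYP4F2 probe set, 11727963_x_at, read 7.03, 6.99 and 6.88 in T286A arrays, 6.89, 7.14 and 6.88 in wild-type arrays, and 6.25 and 5.92 in empty vector arrays. Both constructs lay above empty vector without overlap, by 0.88 ± 0.12 with T286A and 0.89 ± 0.12 with wild type, which is 1.85-fold in each. These 2 values share the same empty vector arrays. The constructs were close to each other, at -0.00 for T286A minus wild type (interval -0.26 to 0.25, adjusted p = 0.995).

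The other 3 CYP4F2 probe sets differed much less from empty vector. Probe set 11727964_x_at averaged 6.27 ± 0.27 in T286A, 6.42 ± 0.070 in wild-type and 6.42 ± 0.067 in empty vector arrays. For 11753371_a_at the CYP4F2 mean was 5.50 ± 0.23 in T286A, 5.25 ± 0.11 in wild-type and 5.31 ± 0.20 in empty vector arrays. For 11753372_x_at it was 4.78 ± 0.16 in T286A, 4.76 ± 0.067 in wild-type and 4.56 ± 0.13 in empty vector arrays. Only in 11753372_x_at, and only with wild type, were the arrays clear of empty vector. Differences from empty vector over these 3 ranged from -0.15 to 0.22 with T286A and from -0.06 to 0.20 with wild type. Averaged over all 4 probe sets, CYP4F2 was 0.28 higher with T286A and 0.26 higher with wild type. The array maker's suffix _x_at marks probe sets in which some probes also match other sequences, so a difference in such a probe set is not assigned with certainty to the gene named.

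CYP4F3 also varied between its probe sets, but unlike CYP4F2 its mean was above empty vector in all 4. Probe set 11749605_x_at read 7.53, 7.70 and 7.70 in T286A arrays, 7.70, 7.76 and 7.57 in wild-type arrays, and 7.14 and 6.94 in empty vector arrays, a difference of 0.60 ± 0.10 with T286A and 0.63 ± 0.10 with wild type and no overlap. Over the 8 arrays its values had a correlation of 0.96 with those of CYP4F2 11727963_x_at, a description in which the 2 empty vector arrays weigh heavily. Probe set 11759103_at, which carries the plain suffix for probes of 1 gene, read 6.39, 6.82 and 6.38 in T286A arrays, 6.43, 6.92 and 6.37 in wild-type arrays, and 5.93 and 5.99 in empty vector arrays. CYP4F3 was there higher without overlap, by 0.56 ± 0.19 with T286A and 0.61 ± 0.19 with wild type. The other plain probe set, 11733297_at, was less even: it averaged 6.33 ± 0.30 in T286A, 6.02 ± 0.19 in wild-type and 5.70 ± 0.39 in empty vector arrays, and T286A stood 0.62 ± 0.21 above empty vector without overlap, while wild type overlapped it at 0.31 ± 0.21. The brightest, 11750945_x_at, overlapped between all groups, at 7.64 ± 0.076 in T286A, 7.71 ± 0.18 in wild-type and 7.50 ± 0.17 in empty vector arrays. All 4 differences were above 0 with each construct, and averaged over the probe sets CYP4F3 was 0.48 higher with T286A and 0.44 higher with wild type.

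A further 3 probe sets are annotated to CYP4F2 and CYP4F3 together and belong to neither alone. Probe set 11733296_s_at read 7.87, 7.89 and 7.74 in T286A arrays, 7.65, 7.71 and 7.67 in wild-type arrays, and 7.26 and 7.34 in empty vector arrays, without overlap between any of the 3 groups. Probe set 11749758_s_at read 7.66, 7.84 and 7.77 in T286A arrays, 7.39, 8.02 and 7.61 in wild-type arrays, and 7.13 and 6.96 in empty vector arrays, again with both constructs above empty vector. The third, 11749604_s_at, averaged 7.66 in T286A, 7.76 in wild-type and 7.44 in empty vector arrays, and its T286A and empty vector arrays overlapped. Over these 3 the differences from empty vector were 0.53, 0.71 and 0.22 with T286A and 0.38, 0.63 and 0.32 with wild type. Transcripts of CYP4F2 and CYP4F3 cannot be told apart by them.

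**Figure D2:**
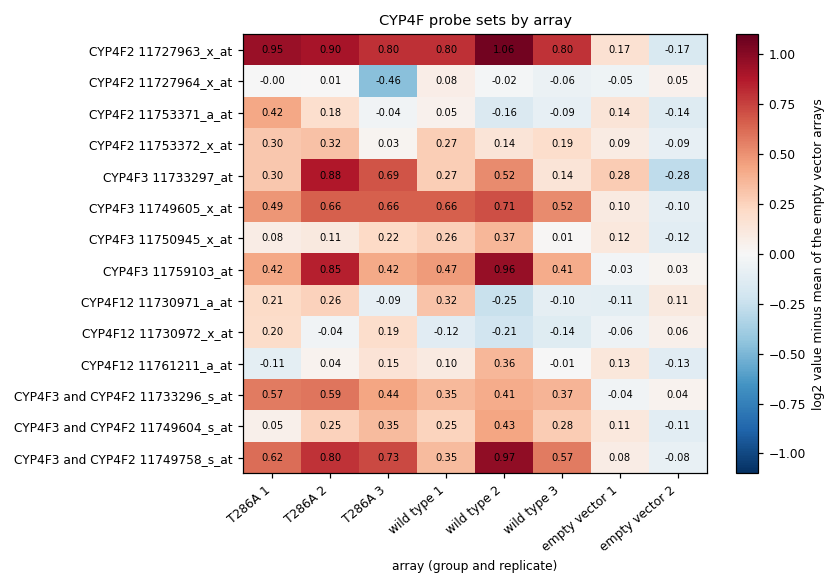
Log2 value of each CYP4F probe set in each array minus the mean of the 2 empty vector arrays; rows are the 11 probe sets of CYP4F2, CYP4F3 and CYP4F12 and the 3 annotated to CYP4F2 and CYP4F3 together, and columns are arrays, with T286A at left, wild type in the middle and empty vector at right. The row of CYP4F2 11727963_x_at is raised in all 6 construct arrays, by more than the other CYP4F2 rows and the CYP4F12 rows.

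CYP4F12, the third relative, was close to empty vector in its 3 probe sets, with differences from 0.03 to 0.12 with T286A and from -0.16 to 0.15 with wild type. Centring on housekeeping genes turned the smallest of these, 0.03 for 11761211_a_at with T286A, to -0.01. In 11730972_x_at, CYP4F12 read 5.60, 5.36 and 5.59 in T286A arrays, 5.28, 5.19 and 5.26 in wild-type arrays, and 5.34 and 5.46 in empty vector arrays. T286A lay above wild type without overlap there, by 0.28 ± 0.085 (interval 0.08 to 0.47), which did not pass (unadjusted p = 0.0105, adjusted p = 0.273). Over all 11 CYP4F probe sets, T286A minus wild type ranged from -0.15 to 0.31. Limma called 0 of them, against 0.526% of all probe sets. At an unadjusted p under 0.05 was 1, against 11.7% of all, so these counts set the CYP4F probe sets apart in neither direction.

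The receptor gene LTB4R differed between the constructs in 1 of its 2 probe sets. Probe set 11731135_a_at read 6.66, 6.98 and 6.87 in T286A arrays, 6.14, 6.06 and 6.23 in wild-type arrays, and 5.93 and 6.22 in empty vector arrays. T286A arrays were above all others, and wild-type arrays overlapped empty vector. T286A exceeded wild type by 0.70 ± 0.11, or 1.62-fold (interval 0.45 to 0.94, adjusted p = 0.0367), higher in 3 of 3 arrays. The T286A values in this test are those for which LTB4R was selected, so its p is not independent of that choice. Differences from empty vector were 0.76 ± 0.12 with T286A and 0.06 ± 0.12 with wild type. The call was lost without any single one of the 8 arrays, with adjusted p from 0.0507 to 0.142 and a difference of 0.62 to 0.78; without wild-type replicate 2 it was 0.65 (adjusted p = 0.104). Over all 16 alternative settings the adjusted p ranged from 0.0127 to 0.142.

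The other LTB4R probe set gave another order. Probe set 11731134_a_at read 6.25, 6.14 and 6.29 in T286A arrays, 5.93, 6.27 and 6.39 in wild-type arrays, and 5.86 and 5.65 in empty vector arrays. Both constructs lay above empty vector without overlap, by 0.47 ± 0.14 with T286A and 0.44 ± 0.14 with wild type. The constructs differed by 0.03 (interval -0.25 to 0.31, adjusted p = 0.948), an interval that does not reach the difference seen in 11731135_a_at. Both probe sets carry the suffix _a_at, for probes matching several transcripts of the same gene, and which transcripts each reads was not analysed here. Beside this result, 0 of 10 myeloid markers were called by limma between the constructs, against 0.526% of all probe sets. Their mean level per array ran from 4.77 to 4.89 in T286A and from 4.82 to 4.84 in wild-type arrays. An unadjusted p under 0.05 was reached by 1 of them, against 11.7% of all probe sets. ITGAM, the marker with that p, differed by 0.45 with overlapping arrays (adjusted p = 0.299), and its part in the LTB4R difference was not tested.

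Between T286A and wild type, limma called 1 of 18 member probe sets, LTB4R 11731135_a_at, which was higher and whose T286A values had led to its choice. Of all 48854 probe sets it called 0.526% (257), with 0.332% higher and 0.194% lower. At an unadjusted p under 0.05 were 3 members (LTB4R, LTA4H and CYP4F12), against 11.7% of all probe sets. Arrays of T286A and wild type did not overlap in 4 of 18, against 17.4% of all: 3 were higher, against 8.88%, and 1 lower, against 8.55%. The median difference was 0.02 over the members and 0.00 over all probe sets.

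The contrasts with empty vector led to the choice of the genes, and nothing is read from the counts that follow. With T286A against empty vector limma called 0 of 18 member probe sets, against 0.127% of all (62), with 0.0819% higher and 0.045% lower. In that comparison 8 members had an unadjusted p under 0.05, against 10.4% of all. The 62 calls were 40 higher and 22 lower, and centring on housekeeping genes turned this split to 6 higher and 19 lower. Arrays did not overlap in 9 of 18, against 29.8% of all: 7 were higher, against 14.7%, and 2 lower, against 15.1%. With wild type against empty vector, 2 of 18 were past the threshold, both higher and both among the CYP4F probe sets, against 0.798% of all (390), with 0.25% higher and 0.549% lower. Of the 18, 5 had an unadjusted p under 0.05, against 11.4% of all. Without overlap were 7 of 18, against 28.2% of all: 5 higher, against 14.2%, and 2 lower, against 13.9%. Medians of the members were 0.16 with T286A and 0.14 with wild type, beside 0.00 for all probe sets in each.

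**Figure D3:**
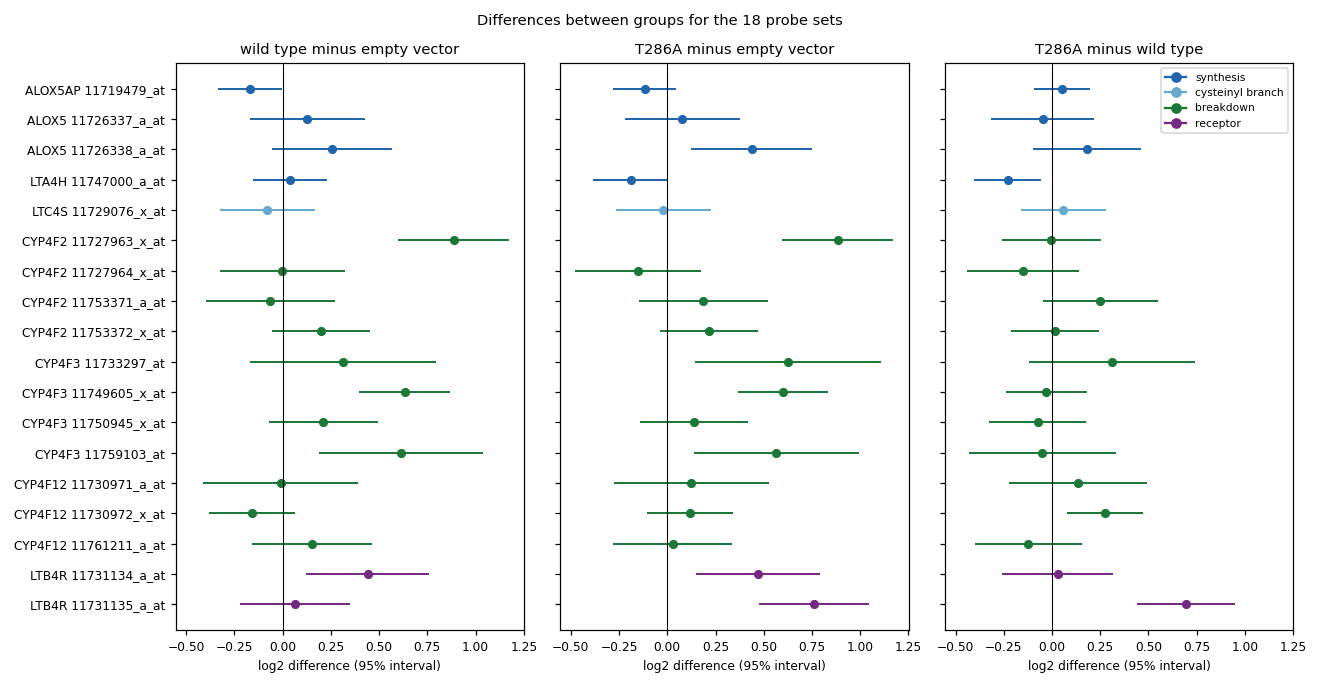
Log2 differences of the 18 probe sets between groups, with points for the estimates and lines for their 95% intervals, in the comparisons of wild type with empty vector, T286A with empty vector and T286A with wild type; colours give the role of the gene. In the right panel the LTB4R probe set 11731135_a_at, at 0.70, lies farthest from 0, and CYP4F2 11727963_x_at is at 0.

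Other genes of the arachidonic acid pathways were taken from 8 lists with 72 genes, 69 of them measured, through the brightest probe set of each. Limma called 0 of 69 with T286A against empty vector, where an unadjusted p under 0.05 was reached by 1 with a higher and 8 with a lower level. It called 1 with wild type against empty vector, where 3 were higher and 7 lower at that p. Between T286A and wild type it called 0, with 5 higher and 5 lower. Of all probe sets, limma called 0.127%, 0.798% and 0.526% in these 3 comparisons, and 10.4%, 11.4% and 11.7% had such a p. Beside shares this small, 0 or 1 call among 69 genes is not read as a result about these pathways. The medians were -0.01, -0.03 and -0.01 in these 3 comparisons, beside 0.00 over all probe sets.

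The single call was PTGER4, a receptor of prostaglandin E2 that signals through cyclic AMP. PTGER4 read 7.47, 7.38 and 7.49 in T286A arrays, 7.27, 6.96 and 7.03 in wild-type arrays, and 7.65 and 7.80 in empty vector arrays. It fell by 0.63 ± 0.11 with wild type (adjusted p = 0.0386) and was at -0.28 ± 0.11 with T286A (adjusted p = 0.405). The constructs differed by 0.36 ± 0.095 (adjusted p = 0.205), so a difference between the constructs was not shown. Among the 9 prostanoid receptors the call was the only one, and it was kept in 7 of 16 alternative settings, which were added after the call was seen, with adjusted p from 0.00878 to 0.316. It was lost without any single array except wild-type replicate 1 (adjusted p 0.0684 to 0.316). PTGDR2, a prostaglandin D2 receptor, was at -0.25 with wild type against empty vector (adjusted p = 0.389) and 0.23 in T286A against wild type (adjusted p = 0.386).

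Of 10 genes for prostanoid synthesis and breakdown, limma called 0 in all 3 comparisons, against 0.127% to 0.798% of all probe sets. PTGES, a prostaglandin E synthase, was at -0.50 ± 0.14 with T286A and -0.48 ± 0.14 with wild type (adjusted p = 0.219 and 0.204). PTGS1, a cyclooxygenase, was at -0.51 ± 0.18 with T286A and -0.58 ± 0.18 with wild type (adjusted p = 0.347 and 0.237), and the thromboxane synthase TBXAS1 was at -0.35 ± 0.11 with each (adjusted p = 0.322 and 0.273). At an unadjusted p under 0.05, 4 of the 10 were lower with T286A, against 10.4% of all probe sets in either direction, and 3 with wild type, against 11.4%. The list medians were -0.14 with T286A and -0.13 with wild type.

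Among 10 measured genes for arachidonate release, none passed in any comparison, against 0.127% to 0.798% of all probe sets. ANXA1, whose product annexin A1 restrains phospholipase A2, read 9.93, 9.99 and 10.02 in T286A arrays, 9.82, 9.74 and 9.85 in wild-type arrays, and 9.33 and 9.50 in empty vector arrays. Both constructs were above empty vector without overlap, by 0.57 ± 0.082 with T286A (adjusted p = 0.0561) and 0.39 ± 0.082 with wild type (adjusted p = 0.0862). The phospholipase gene PLA2G4A was at -0.21 ± 0.085 in T286A against wild type (adjusted p = 0.402), where ANXA1 was at 0.18 (adjusted p = 0.404). PLA2G6, another phospholipase gene, was at 0.37 with wild type against empty vector (adjusted p = 0.318).

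In the remaining lists limma called 0 genes in any comparison, against 0.127% to 0.798% of all probe sets. Of the 9 measured genes of the cysteinyl branch, 1 was lower at an unadjusted p under 0.05 in T286A against empty vector, the receptor CYSLTR2 at -0.38, and 1 in T286A against wild type, the glutathione transferase MGST3 at -0.20. The 5 other lipoxygenases had none in any comparison. COTL1, a binding partner of the ALOX5 protein, was at 0.20 ± 0.063 in T286A against wild type (adjusted p = 0.295). PTGR2, a prostaglandin reductase, was at -0.35 ± 0.11 with T286A against empty vector (adjusted p = 0.291), with no overlap of the arrays, and at -0.16 with wild type against empty vector (adjusted p = 0.637). Among 9 other CYP4 enzymes, CYP4F8 was at -0.39 ± 0.093 with T286A against wild type (adjusted p = 0.163) and 0.26 ± 0.10 with wild type against empty vector (adjusted p = 0.384), and CYP4Z1 was at -0.24 in T286A against wild type (adjusted p = 0.410). In the list of 12 other lipid and peptide receptors of leukocytes, the platelet-activating factor receptor PTAFR was at 0.47 ± 0.11 in T286A against wild type (adjusted p = 0.141) and -0.34 in wild type against empty vector (adjusted p = 0.309). GPR183, the oxysterol receptor that guides B cells, was at -0.26 with T286A against empty vector (adjusted p = 0.287) and -0.20 in T286A against wild type (adjusted p = 0.341). The sphingosine phosphate receptor S1PR2 was at -0.29 in wild type against empty vector (adjusted p = 0.329).

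**Figure D4:**
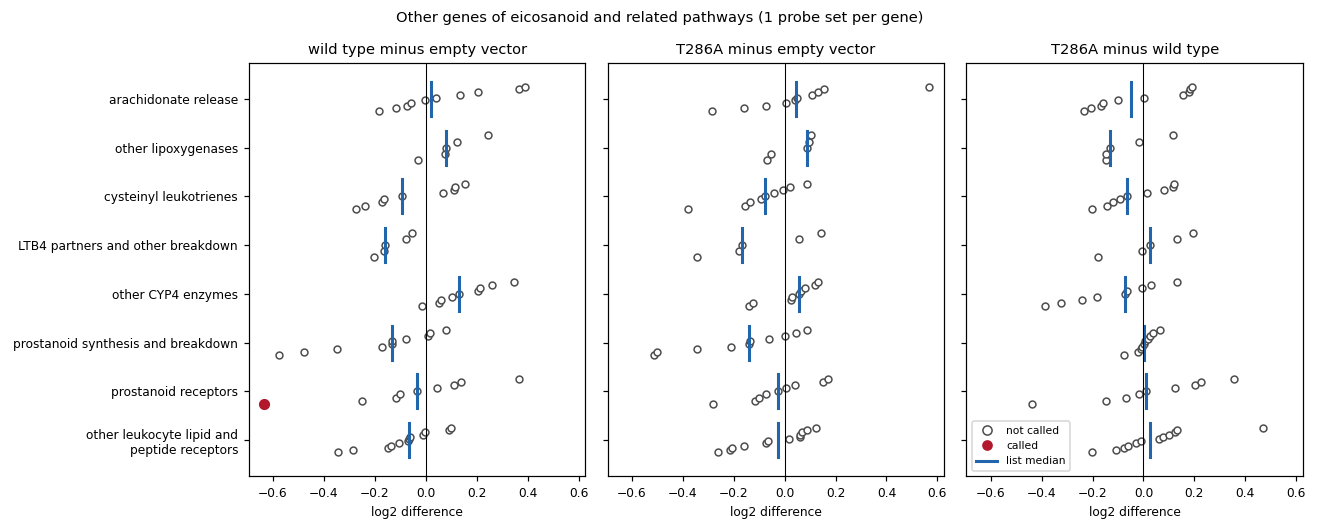
Log2 differences of 69 other pathway genes, by list, in the comparisons of wild type with empty vector, T286A with empty vector and T286A with wild type; each point is the brightest probe set of a gene, filled where limma called it, and bars mark list medians. The filled point is PTGER4 at -0.63 with wild type, and no gene was called in the other panels.

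None of the neighbouring genes on the chromosome that are no members was called by limma in any comparison. The share of all probe sets called was 0.127% to 0.798%. CYP4F11 lies beside CYP4F2 on chromosome 19 and averaged 4.36 in T286A, 4.69 in wild-type and 4.34 in empty vector arrays; CYP4F8 and CYP4F22, on the other side of CYP4F3, had means between 4.61 and 5.00. Neighbours of LTB4R on chromosome 14 are CIDEB, DHRS1, ADCY4, RIPK3 and NFATC4. CIDEB, a lipid droplet protein gene next to LTB4R2, averaged 8.99 in T286A, 8.92 in wild-type and 8.74 in empty vector arrays, a difference of 0.26 with T286A (adjusted p = 0.287) and 0.18 with wild type (adjusted p = 0.438). Between T286A and wild type, CYP4F8 had the largest difference among these neighbours.

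The genes most like the brightest CYP4F2 probe set were sought among 343 genes at or above the median level whose group means spanned at least 0.5, by Pearson correlation over the 8 arrays. They were CKAP2L (0.97), CCND1 itself (0.96), FERMT2 (0.96), E2F2 (0.96) and CDC45 (0.96). Each of them was lower in both empty vector arrays than in all 6 construct arrays, which is what such a correlation mainly reads here. For LTB4R 11731135_a_at they were the ubiquitin protease gene USP37 (0.95), CALML4 (0.93), CHRNA6 (0.91), DGKE (0.90) and TMOD1 (0.88), all with their highest mean in T286A arrays. USP37 averaged 7.25 in T286A, 6.84 in wild-type and 6.66 in empty vector arrays. With 8 arrays in 3 groups, correlations of this size describe a shared group pattern and carry no test.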

How the data were processed

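RNA of 8 samples was measured on an Affymetrix array. The deposited values are log2 expression per probe set, which the authors computed by RMA under R 3.5.0 (submitters' processing notes); other settings are not given in the sources used here. Members and lists were chosen with earlier results of these data known.

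Of 48864 probe sets, 10 control probe sets were left out. The platform's annotation gave 45220 probe sets 1 gene, 1325 several and 2309 none. All 48854 were fitted together in limma 3.58.1 (R 4.3.3) with a mean per group over all 8 arrays, with 5 residual and 3.60 prior degrees of freedom and no intensity filter. A probe set was called at a two-sided Benjamini-Hochberg adjusted p under 0.05 over all probe sets. Precision is limited by the small number of arrays. The fit was tested on simulated data. Of planted log2 changes of 0.5, it called 18% between the constructs. With empty vector as the reference, it called 17% for wild type and 11% for T286A. Planted changes of 1 were called in 90%, 86% and 77%, in the same order. A difference near 0.5 that was not called is therefore weak evidence that a gene was unchanged.

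Named were all members; from each list the called genes, or else up to 2 a comparison with the smallest p, of which the text gives those with an unadjusted p under 0.05 (a limit set after the values were seen); up to 3 protein-coding neighbours either way; and the 5 genes most correlated with CYP4F2 and LTB4R. Alternatives were a level filter, 1 probe set per gene, trended robust variances, array weights, 2 rescalings, fits of 2 groups, a replicate block and leaving out each array.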

Additional observations from a re-analysis of the deposited data

Results flagged for a closer look

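LTB4R probe set 11731135_a_at differed by 0.70 (log2) between T286A and wild-type cyclin D1 in a direct comparison of the constructs (limma, adjusted p = 0.0367, higher with T286A in 3 of 3 arrays). It read 6.66 to 6.98 in T286A arrays and 6.06 to 6.23 in wild-type arrays. The gene had been selected on these T286A values, so the p is not independent evidence. The call held in 4 of 16 alternative settings, and adjusted p was 0.0507 to 0.142 without any single one of the 8 arrays. The other LTB4R probe set, 11731134_a_at, gave 0.03. With 2 or 3 arrays in a group, no test of single outlying values was made; wild-type replicate 2 had the lowest array weight (0.505), and without it the difference was 0.65 (adjusted p = 0.104).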

How the results depend on the processing

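The counts of calls depended strongly on the setting, and the cause was not tested. For wild type against empty vector, the 390 called probe sets became 804 with the level filter, 1148 with trended robust variances, 88 in a fit of the 2 groups and 102 with the replicate block, and 41 to 257 without single arrays. For T286A against empty vector, the 62 became 608 with the filter, 97 with 1 probe set per gene, 997 with trended variances, 331 with array weights, 25 with housekeeping centring, 1 in a fit of the 2 groups and 1 with the block, and 1 to 30 without single arrays. For T286A against wild type, the 257 became 438 with the filter, 840 with trended variances, 157 in a fit of the 2 groups and 122 with the block, and 90 to 165 without single arrays. Leaving out an empty vector array leaves 1 control, assumed to vary like the other groups.

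Member counts moved with them; those against empty vector come from the contrasts that led to the choice of the genes and are no measure of stability. The 2 past the threshold with wild type against empty vector were 1 with 1 probe set per gene, 0 in a fit of the 2 groups and 0 with the replicate block. ALOX5AP (-0.17) passed the threshold in that contrast in 1 of the 16 alternatives, trended variances, and nothing is read from it. With T286A against empty vector, the count of 0 became 3 with the filter, 2 with 1 probe set per gene, 3 with trended variances and 3 with array weights, and 0 without single arrays. The 1 called between T286A and wild type became 0 with repeated quantile normalization, housekeeping centring, a fit of the 2 groups, the block or without any single array. The filter kept 12 of the 18 member probe sets, so the other 6 have no value there. Of 816 values of single member probe sets under the 16 alternatives, 776 kept their side of the threshold or moved by less than the replicate spread, 27 lost and 12 gained a call, and 1 moved further. The sign changed in 44, of values up to 0.15 in size, and in 0 of these was the value called in either setting. Replicate numbers were not taken as pairs in the main fit, and the labels state no pairing. Same-numbered T286A and wild-type arrays deviated from their group means with correlations of 0.03, 0.12 and 0.01, and differently numbered ones with -0.12 to 0.12. With so few arrays these values cannot settle whether samples were paired. Dim probe sets near background limit what small differences can show.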
